A study of Mus musculus with 12 samples.

Results

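The 37 genes described here encode proteins of the complement system, of blood clotting and of fibrinogen, and were taken by symbol from the expression table, which holds 34348 genes. All 37 were found. They comprise 19 complement genes and 18 clotting genes, which include the fibrinogen chains, the anticoagulants and plasminogen. No member passed the test for a difference between LCWE and PBS in either tissue. In liver all 3 fibrinogen chains, C3, C4b and properdin were between 1.41-fold and 1.80-fold of PBS on the log scale of the test. The mannose-binding lectin gene Mbl2 was at 0.70-fold and the gamma chain of C8 at 0.72-fold. Of these genes, the beta and gamma fibrinogen chains, C3 and Mbl2 overlapped between the groups. Whether 5 members passed in liver depended on a single PBS library, as described below.

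Complement is a set of plasma proteins in which recognition molecules activate proteases, the proteases assemble convertases that cleave C3 and C5, and the fragments tag microbes, attract leukocytes and start the pore-forming terminal complex. Clotting is likewise a chain of proteases and cofactors, which ends in thrombin cutting fibrinogen to fibrin, held in check by anticoagulants and undone by plasmin. Hepatocytes make most of both sets for the blood, and fibrinogen and C3 are classical acute phase proteins, whose synthesis follows inflammatory cytokines. Properdin and the recognition molecule C1q come mostly from leukocytes, and the intestinal mucosa makes some complement of its own, C3 and factor B among it.

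Total RNA was sequenced from liver and small intestine of C57BL/6 mice. The groups were liver of LCWE-induced mice, liver of mice given phosphate-buffered saline (PBS), small intestine of LCWE-induced mice and small intestine of PBS mice, with 3 libraries each. LCWE commonly stands for Lactobacillus casei cell wall extract, which is used in mice as a model of the vasculitis of Kawasaki disease. In the authors' differential table the treated groups carry the name LCWECFA, with CFA left unexplained. The labels used here do not give age, sex, dose, route or time after treatment either, nor whether libraries came from separate animals. The p-values therefore rest on the spread between these libraries, part of which may be technical. Library values below are in the order of the labels' replicate numbers, which are 1, 2 and 4 for LCWE and 2, 3 and 4 for PBS. Levels are in RPKM, which corrects read counts for the length of the gene and the depth of the library, so that levels of different genes can be set side by side.

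The liver libraries held 34741958 to 44921885 reads in genes and the intestinal libraries 30294594 to 40253006. Summed over 10 hepatocyte markers, the level was 33060 to 36590 RPKM in LCWE livers, 36360 to 52700 in PBS livers, 147 to 399 in LCWE intestines and 148 to 174 in PBS intestines. Summed over 7 enterocyte markers it was 1663 to 5764 RPKM in LCWE intestines, against 8831 to 18070 in PBS intestines. In livers it was 204 to 346 with LCWE and 274 to 337 with PBS, most of it Apoa4, with Alpi and Lct below 0.5 RPKM throughout. Of the 7, 0 averaged higher in LCWE intestines and 0 passed the test there. The intestinal difference lay mostly in Fabp2 (means of 2227 RPKM with LCWE and 8120 RPKM with PBS) and Apoa4 (293 and 3738 RPKM). Sis, Vil1 and Anpep overlapped between the groups. In bulk tissue, fewer cells of a type and less RNA per cell cannot be told apart. Liver PBS replicate 2 stood apart from the other livers. Its log2 values across genes correlated with those of PBS replicates 3 and 4 at 0.965 and 0.966, against 0.989 between these 2.

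The members belonged to the most abundant transcripts of the liver. Of the reads in genes, the 37 members took 5.29%, 6.23% and 4.64% in LCWE livers, against 4.48%, 4.004% and 3.78% in PBS livers. The 2 groups did not overlap. The 3 fibrinogen genes alone took 2.05%, 2.39% and 1.82% in LCWE livers and 1.90%, 1.23% and 1.17% in PBS livers, and C3 took 1.46%, 1.95% and 1.18% in LCWE livers and 0.780%, 1.21% and 1.05% in PBS livers. Averaged over the 6 livers, C3 was the highest member at 2474 RPKM, followed by Fga at 2326, Fgb at 1847, Fgg at 1698, Plg at 678.6 and Kng1 at 643.5 RPKM. C3 and Fga overlapped in both groups, as did Fgb and Fgg, so these neighbours in the order did not differ beyond their spread. Plg and Kng1 overlapped in PBS livers but not in LCWE livers. At the low end stood C2 at 13.7, Pros1 at 12.2 and Cfp at 6.99 RPKM, still above 86.26% of the genes in the table in the case of Cfp.

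The liver comparison asks how expression differs between LCWE-induced and control mice. In liver, 0 of 37 members passed by limma (adjusted p below 0.05 over all genes tested), against 4.04% of the 14404 genes tested, and 0 passed by limma voom on recovered reads, against 5.07%. At an unadjusted p below 0.05 there were 10 members with limma and 11 with voom, against 18.7% and 19.2% of genes. The levels of the LCWE and PBS livers did not overlap for 12 members, against 27.5% of genes. None of these counts was tested against its background. The median log2 fold change, on the log2(RPKM + 0.5) scale used throughout, was 0.13 over the 19 complement members and 0.06 over the 18 clotting members, beside 0.06 over all genes tested. Of the complement members 16 averaged higher in LCWE livers, and of the clotting members 13, beside 8673 of the 14404 genes tested. After median-ratio scaling the members that averaged higher were 12 and 8, beside 6679 of 14373 genes. The medians were then 0.03 and -0.05, and the median of all genes -0.02. The 9 members that changed sign there (C4bp, Cfb, F10, F11, F12, F13b, Kng1, Masp1 and Masp2) had differences close to 0 in either direction.

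**Figure D1:**
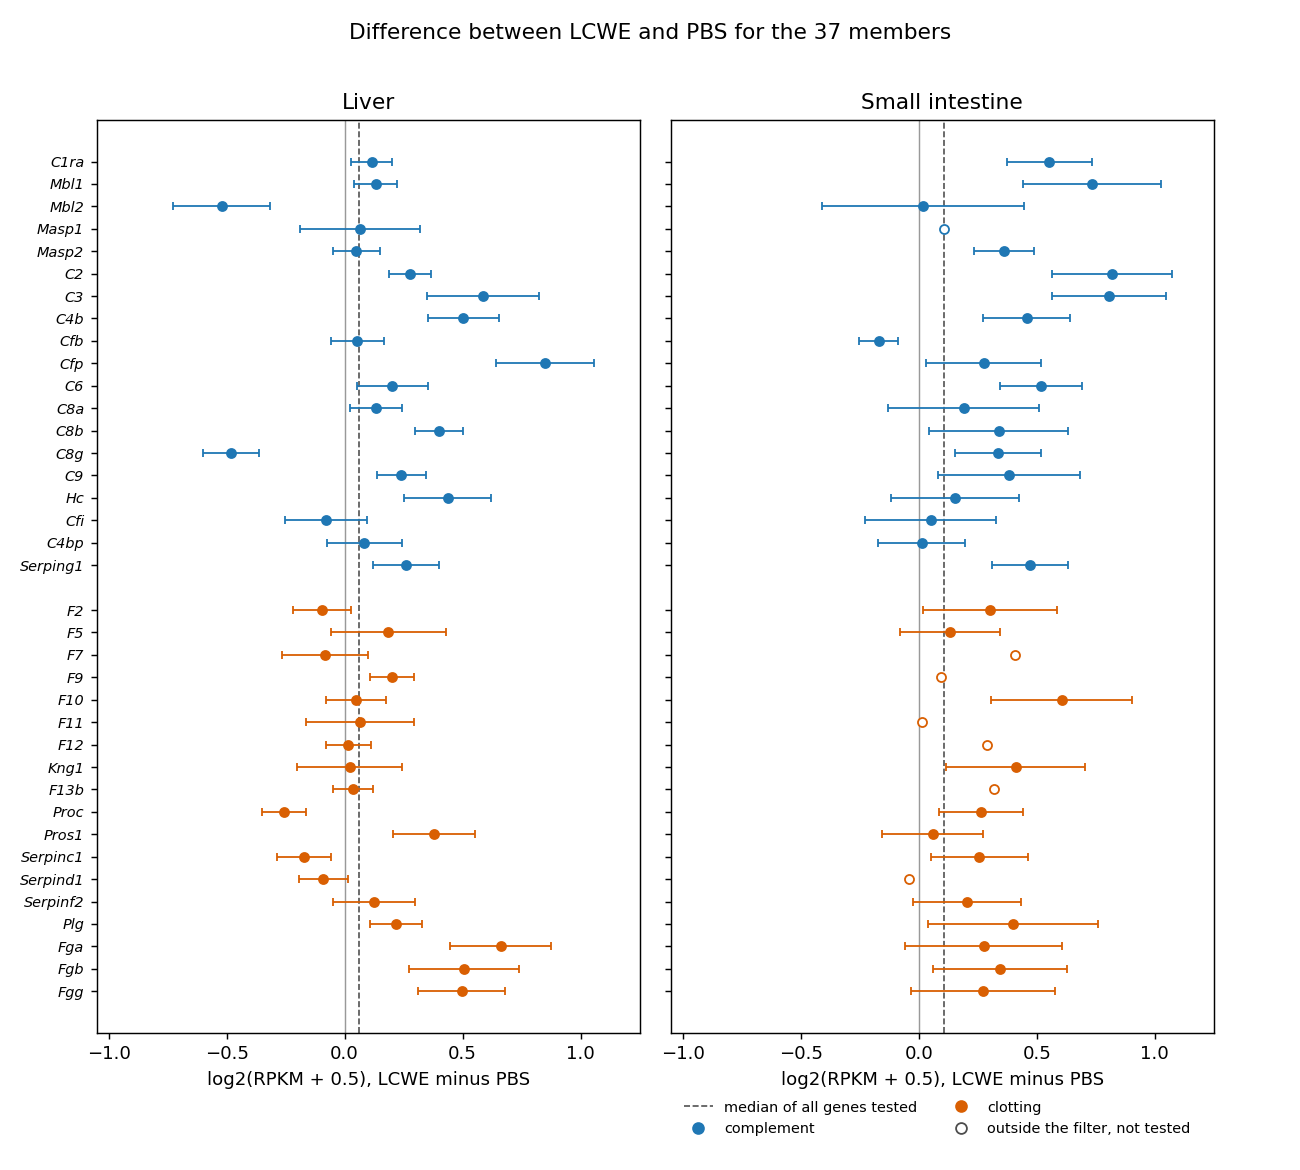
Difference between LCWE and PBS on the log2(RPKM + 0.5) scale for each member in liver (left) and small intestine (right). Points are estimates and bars are ± 1 SE from limma (3 libraries per group). Open points are members outside the filter, and the dashed line is the median over all genes tested. In the intestine 35 of 37 members lie above 0, beside 12079 of 17510 genes tested, and in liver 29, beside 8673 of 14404. After median-ratio scaling 30 members lay above 0 in the intestine and 20 in liver. Without intestinal LCWE replicate 4 it was 20 in the intestine.

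Fibrinogen, the clot substrate, is a hexamer of alpha, beta and gamma chains encoded by Fga, Fgb and Fgg. The 3 genes lie side by side on mouse chromosome 3 (mm10), Fgg at 83007724 to 83015049, Fga at 83026076 to 83033627 and Fgb, on the minus strand, at 83040141 to 83049863. Their promoters are shown because the levels of the chains ran in parallel from library to library, with that of C3 for comparison. The sequences come from RefSeq (GRCm38.p6), 5′ to 3′ on the strand of the gene, and end at the base before the deposited gene span, which for Fga lies upstream of the RefSeq start. Capitals mark the letters CTGGGAA, the core of the interleukin 6 response element, and TTNNGCAA, a form of the C/EBP site, on either strand.
Fga, chr3:83025903-83026075, plus strand: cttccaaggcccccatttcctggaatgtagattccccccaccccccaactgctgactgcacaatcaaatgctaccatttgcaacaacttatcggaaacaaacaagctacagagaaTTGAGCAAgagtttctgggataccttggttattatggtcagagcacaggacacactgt
Fgb, chr3:83049864-83050113, minus strand: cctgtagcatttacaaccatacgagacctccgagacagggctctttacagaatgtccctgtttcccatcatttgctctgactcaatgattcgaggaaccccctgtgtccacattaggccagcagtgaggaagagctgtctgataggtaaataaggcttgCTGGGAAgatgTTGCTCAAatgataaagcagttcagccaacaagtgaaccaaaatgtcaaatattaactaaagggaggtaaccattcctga
Fgg, chr3:83007474-83007723, plus strand: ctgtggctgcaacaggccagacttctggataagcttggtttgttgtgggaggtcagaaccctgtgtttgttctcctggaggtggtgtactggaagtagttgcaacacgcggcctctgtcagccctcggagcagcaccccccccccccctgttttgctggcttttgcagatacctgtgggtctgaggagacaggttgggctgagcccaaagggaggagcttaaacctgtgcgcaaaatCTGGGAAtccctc
C3, chr17:57228137-57228386, minus strand: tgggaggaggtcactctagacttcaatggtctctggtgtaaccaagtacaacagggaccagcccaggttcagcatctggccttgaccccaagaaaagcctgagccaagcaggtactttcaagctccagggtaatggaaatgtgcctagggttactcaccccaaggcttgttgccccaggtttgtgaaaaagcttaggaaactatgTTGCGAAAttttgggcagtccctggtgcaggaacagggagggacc

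A promoter of 300 bases was found in the RefSeq table for 28 of the 37 members. CTGGGAA occurred on either strand in 6 of the 28 (C1ra, C6, F9, Fgb, Fgg and Masp2), against 11.1% of all 32851 promoters of that length. The STAT palindrome TTCNNNGAA occurred in 7 (C1ra, C8a, F9, Fga, Fgb, Masp2 and Pros1), against 8.30% of all promoters, and in F9 and Masp2 it overlapped CTGGGAA. TTNNGCAA occurred in 8 (C1ra, C3, C9, F11, F9, Fga, Fgb and Serpinc1), against 10.8%. The HNF1 motif occurred in Hc alone, against 0.0609% of all promoters. Of the 13 complement members with a promoter, 3 held each of the first 3 motifs, and of the 15 clotting members 3, 4 and 5 held them in that order. A match is a description of these letters and was not tied to binding in these data.

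Fga was at 2755, 3270 and 2469 RPKM in LCWE livers, against 2401, 1588 and 1474 RPKM in PBS livers. The groups did not overlap, but the highest PBS library, replicate 2, was close to the lowest LCWE library. The log2 difference was 0.66 ± 0.21 (SE), 1.58-fold, with a limma adjusted p of 0.159. Fgb was at 2101, 2456 and 1878 RPKM in LCWE livers and 2132, 1268 and 1247 RPKM in PBS livers, where replicate 2 lay among the LCWE values. Its difference was 0.51 ± 0.23, 1.42-fold (adjusted p = 0.309). Fgg was at 1997, 2247 and 1702 RPKM in LCWE livers, against 1760, 1290 and 1195 RPKM in PBS livers, again with replicate 2 inside the LCWE range (0.50 ± 0.18, 1.41-fold, adjusted p = 0.212). The exons of Fgg overlap Gm30097 on the other strand, listed at 2002, 2291 and 1616 RPKM in LCWE livers and 1571, 1312 and 1206 RPKM in PBS livers. Without a stated strandedness, reads of the 2 genes cannot be told apart.

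All 3 chains were thus highest in LCWE replicate 2, lowest in PBS replicate 4 and, within the PBS livers, highest in replicate 2. Without PBS replicate 2, Fga was 1.84-fold higher in LCWE livers (0.88 ± 0.15, adjusted p = 0.033), Fgb 1.70-fold (0.76 ± 0.14, adjusted p = 0.0393) and Fgg 1.59-fold (0.67 ± 0.15, adjusted p = 0.0593). Fga and Fgb then passed and Fgg did not. Over all alternatives the adjusted p ran from 0.033 to 0.457 for Fga, from 0.0393 to 0.653 for Fgb and from 0.0593 to 0.592 for Fgg. The proportions of the chains to each other were not tested. The level of Fga per Fgb was 1.31, 1.33 and 1.32 in LCWE livers, against 1.13, 1.252 and 1.18 in PBS livers, and did not overlap, whereas Fgg per Fgb was 0.950, 0.915 and 0.907 in LCWE livers, inside the range of 0.826, 1.02 and 0.958 in PBS livers.

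**Figure D2:**
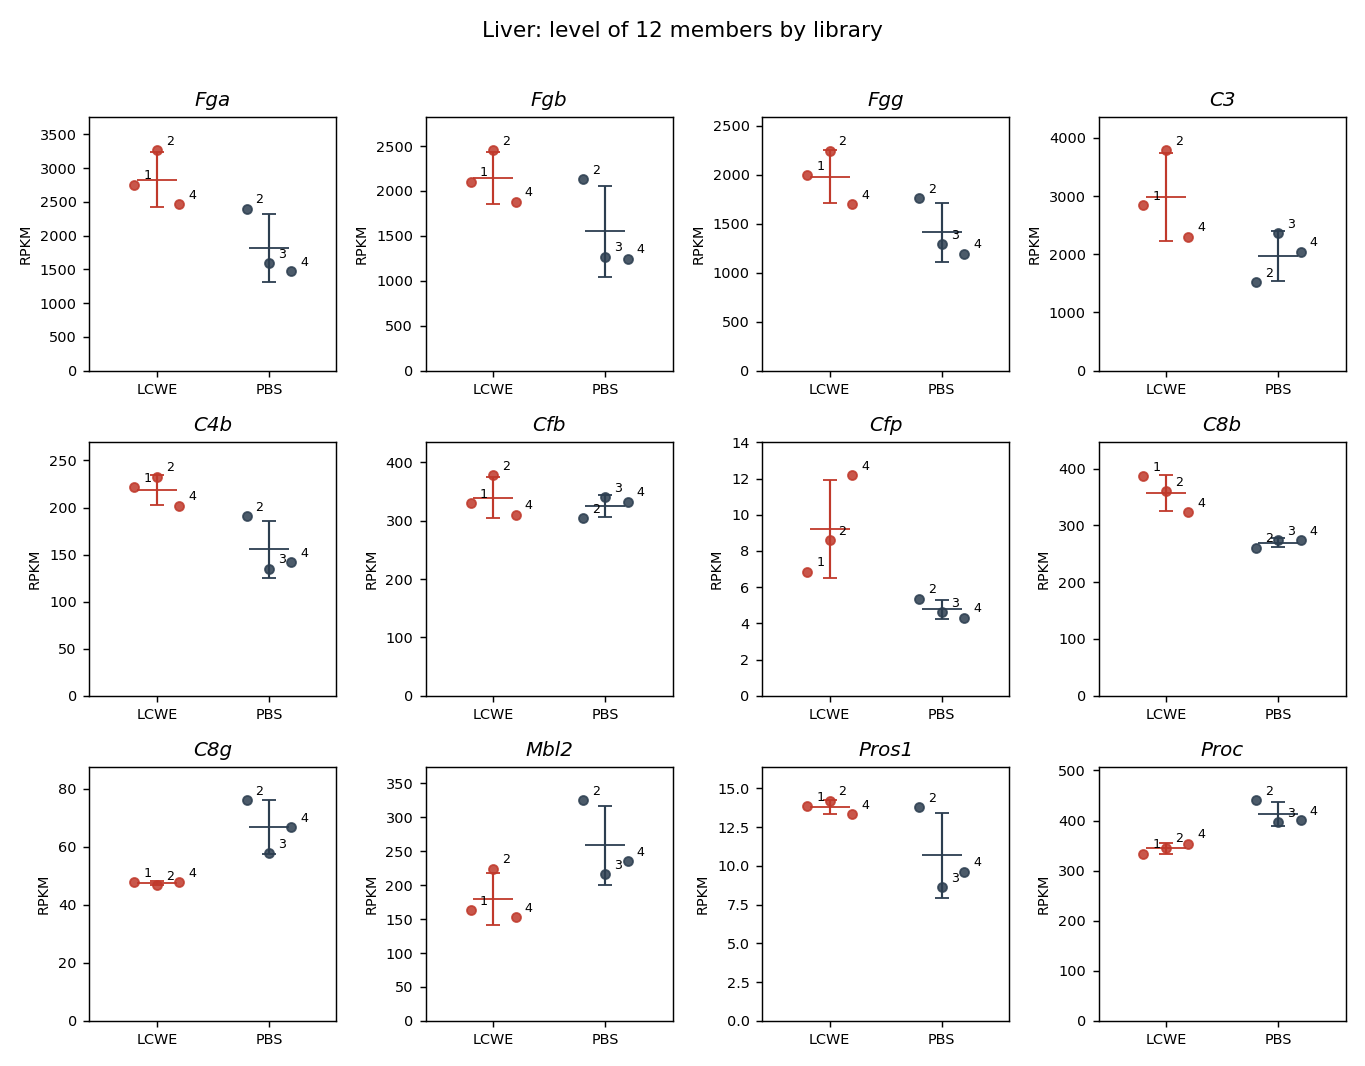
Level in RPKM of 12 members in each liver library, LCWE left of PBS in every panel. Points are libraries marked with their replicate number, lines and bars are mean ± SD (n = 3); PBS replicate 2 lies at or near the LCWE range for Fga, Fgb, Fgg, C4b and Pros1 and farthest from it for C8g, Mbl2 and Proc.

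Among the 8 proteases and cofactors of clotting none reached an unadjusted p below 0.05 in liver, and their median log2 fold change was 0.04. Without PBS replicate 2 the median was 0.15, and F9 (0.24 ± 0.08) and Kng1 (0.28 ± 0.11) reached such a p, with adjusted p of 0.145 and 0.198. Prothrombin (F2) averaged 161.9 ± 10.51 RPKM in LCWE livers and 174.0 ± 23.0 RPKM in PBS livers (mean ± SD, n = 3 each). The factor V gene F5, which encodes the cofactor of the thrombin-forming complex, averaged 104.6 ± 12.1 RPKM in LCWE livers and 94.9 ± 29.1 RPKM in PBS livers. Kininogen (Kng1), the cofactor of the contact system and source of bradykinin, averaged 638.8 ± 62.5 RPKM in LCWE livers and 648.2 ± 212 RPKM in PBS livers. The wide PBS spread of F5 and Kng1 came from replicate 2, at 61.7 RPKM against 116 and 107 RPKM in the other PBS livers for F5, and at 892.7 RPKM against 526.7 and 525.3 RPKM for Kng1. F7, whose protein starts the extrinsic pathway with tissue factor, and F10, whose protein makes thrombin, are neighbours on chromosome 8 (13026034 to 13035809 and 13037308 to 13056676). F7 averaged 0.94-fold and F10 1.03-fold of the PBS level. F9, the factor missing in haemophilia B, was at 60.8, 62.9 and 58.1 RPKM in LCWE livers, against 55.4, 54.0 and 48.8 RPKM in PBS livers. These did not overlap, with a difference of 0.20 ± 0.10 (adjusted p = 0.321). F11 and F12 of the contact pathway, and F13b, the carrier subunit of the fibrin-crosslinking factor XIII, averaged between 1.01-fold and 1.05-fold of PBS.

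The 5 anticoagulant or antifibrinolytic genes had a median of -0.09 in liver (-0.03 without PBS replicate 2), with 2 averaging higher and 3 lower in LCWE livers. Proc, which encodes protein C, the protease that inactivates factors V and VIII, was at 333.7, 345.8 and 354.2 RPKM in LCWE livers and at 440.4, 396.4 and 400.6 RPKM in PBS livers. Every LCWE library was below every PBS library. The difference was -0.26 ± 0.09, 0.84-fold, with an adjusted p of 0.207. Pros1, which encodes its cofactor protein S, was at 13.9, 14.2 and 13.3 RPKM in LCWE livers, against 13.8, 8.63 and 9.63 RPKM in PBS livers. Here PBS replicate 2 lay inside the LCWE range, the difference was 0.38 ± 0.17 (adjusted p = 0.305), and without that library it was 0.57 ± 0.08, 1.49-fold, with an adjusted p of 0.0227 (0.0227 to 0.827 over all alternatives).

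Antithrombin (Serpinc1), the main inhibitor of thrombin and factor Xa, was at 65.3, 71.3 and 75.3 RPKM in LCWE livers and at 89.8, 74.1 and 75.5 RPKM in PBS livers (0.89-fold, adjusted p = 0.483). Heparin cofactor II (Serpind1), a second thrombin inhibitor, was at 78.4, 77.8 and 68.5 RPKM in LCWE livers and at 86.7, 76.4 and 76.2 RPKM in PBS livers (0.94-fold, adjusted p = 0.695). Both overlapped between the groups. Serpinf2, which encodes the plasmin inhibitor alpha 2-antiplasmin, was at 92.2, 90.8 and 90.6 RPKM in LCWE livers and 110.6, 73.4 and 72.2 RPKM in PBS livers. The LCWE values lay between PBS replicate 2 and the other PBS livers, and without that replicate the difference was 0.32 ± 0.06, 1.252-fold (adjusted p = 0.044, in a range of 0.044 to 0.985 over all alternatives). Plg, the precursor of plasmin, was at 724.7, 759.6 and 701.4 RPKM in LCWE livers, just above 700.4, 603.0 and 582.7 RPKM in PBS livers (0.22 ± 0.11, adjusted p = 0.361).

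On the complement side, the 5 initiation genes had a liver median of 0.07. Mbl1 and Mbl2 encode the mannose-binding lectins of the mouse, which recognise microbial sugars. Mbl2 was at 162.9, 224.2 and 152.9 RPKM in LCWE livers and at 325.0, 216.2 and 235.3 RPKM in PBS livers, 0.70-fold, with LCWE replicate 2 inside the PBS range (-0.52 ± 0.21, adjusted p = 0.241). Mbl1, by contrast, was at 272.2, 296.0 and 266.8 RPKM in LCWE livers, against 248.0, 254.9 and 257.5 RPKM in PBS livers, without overlap but only 1.10-fold (adjusted p = 0.498). The level of Mbl2 per Mbl1 was therefore 0.599, 0.758 and 0.573 in LCWE livers, below 1.31, 0.848 and 0.914 in PBS livers. C1ra, a protease of the C1 complex, was 1.08-fold of PBS, and the lectin pathway proteases Masp1 and Masp2 were 1.05-fold and 1.04-fold (adjusted p between 0.542 and 0.921 for the 3 genes). Masp1 ranged from 20.9 to 24.7 RPKM in LCWE livers and was at 14.0 RPKM in PBS replicate 2, against 28.0 and 25.6 RPKM in the other PBS livers.

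The 5 genes of the C3 convertases all averaged higher in LCWE livers, except that Cfb averaged lower after median-ratio scaling (-0.05) and without LCWE replicate 2 (-0.03), and had a median log2 fold change of 0.50. C3, the central component, lies on chromosome 17 at 57203970 to 57228136 and was at 2841, 3791 and 2298 RPKM in LCWE livers, against 1516, 2358 and 2043 RPKM in PBS livers. The groups overlapped by LCWE replicate 4 and PBS replicate 3, and the difference was 0.59 ± 0.24, 1.502-fold, with an adjusted p of 0.247. Unlike the fibrinogen chains, C3 was lowest in PBS replicate 2, and without that library its difference was 0.41 ± 0.23 (adjusted p = 0.344, in a range of 0.202 to 0.598). C4b, whose product forms the classical and lectin pathway convertase with that of C2, was at 221.5, 232.9 and 202.0 RPKM in LCWE livers, all above 190.6, 135.0 and 141.6 RPKM in PBS livers (0.50 ± 0.15, 1.42-fold, adjusted p = 0.134). Without PBS replicate 2 it was 1.58-fold higher (0.66 ± 0.09, adjusted p = 0.0204, in a range of 0.0204 to 0.646 over all alternatives). Its near-identical neighbour C4a, whose reads may be shared, was at 11.6, 13.2 and 15.4 RPKM in LCWE livers and 8.18, 20.3 and 17.9 RPKM in PBS livers. C2 varied little within a group, at 14.9, 15.0 and 15.1 RPKM in LCWE livers and 11.9, 12.9 and 12.1 RPKM in PBS livers, and did not overlap (0.28 ± 0.09, adjusted p = 0.152).

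Factor B (Cfb), the protease of the alternative pathway convertase, was at 329.6, 378.0 and 310.0 RPKM in LCWE livers and 304.7, 340.4 and 332.6 RPKM in PBS livers. The groups overlapped almost fully, at 1.04-fold (adjusted p = 0.839). C3 stood at 8.62, 10.03 and 7.41 times the level of Cfb in LCWE livers, against 4.98, 6.93 and 6.14 times in PBS livers. C2 and Cfb adjoin each other on chromosome 17, and a read-through gene listed there, Gm20547, shares exons with both and was at 244.0, 277.2 and 230.5 RPKM in LCWE livers and 227.5, 248.7 and 244.2 RPKM in PBS livers. Reads in the shared exons may have been counted for more than a single gene among the 3, or dropped. Properdin (Cfp), which stabilises the alternative pathway convertase, had the largest log2 difference of the members in liver when all libraries were used. Without LCWE replicate 4 it was 0.64, below C3 and Fga at 0.76 each. Properdin was at 6.86, 8.58 and 12.2 RPKM in LCWE livers, against 5.37, 4.63 and 4.31 RPKM in PBS livers, a difference of 0.85 ± 0.21 or 1.80-fold, with an adjusted p of 0.0752 and a range over alternatives from 0.0655 to 0.336. The groups did not overlap, and Cfp was the lowest of the members in level.

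The 6 terminal pathway genes diverged in liver. C8 is built of alpha, beta and gamma chains encoded by C8a, C8b and C8g, and the products of C6, C9 and Hc (C5) complete the pore. C8g was at 47.7, 46.7 and 47.9 RPKM in LCWE livers, against 76.0, 57.7 and 66.8 RPKM in PBS livers. The groups were apart, and the difference of -0.48 ± 0.12, 0.72-fold, had an adjusted p of 0.0781. The adjusted p ran from 0.0457, without PBS replicate 2 under median-ratio scaling, to 0.502 over all alternatives. C8b was at 386.1, 360.5 and 322.9 RPKM in LCWE livers, all above 260.3, 274.1 and 274.0 RPKM in PBS livers (0.40 ± 0.10, 1.32-fold, adjusted p = 0.0877). C8a averaged 368.6 ± 39.9 RPKM in LCWE livers and 334.6 ± 9.22 RPKM in PBS livers and overlapped (1.10-fold, adjusted p = 0.580). The level of C8g per C8a was 0.126, 0.116 and 0.148 in LCWE livers, below 0.231, 0.175 and 0.193 in PBS livers, while C8b per C8a was 1.02, 0.898 and 0.996 in LCWE livers, above 0.793, 0.830 and 0.794 in PBS livers. Both ratios were thus apart between the groups in these libraries, and they were not tested.

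C9 averaged 334.9 ± 30.9 RPKM in LCWE livers and 282.5 ± 9.58 RPKM in PBS livers without overlap (1.18-fold, adjusted p = 0.287). Hc averaged 183.8 ± 40.7 RPKM in LCWE livers and 133.8 ± 14.6 RPKM in PBS livers (1.35-fold, adjusted p = 0.270), and C6 86.9 ± 9.76 RPKM in LCWE livers and 75.7 ± 11.8 RPKM in PBS livers (1.151-fold, adjusted p = 0.527). Hc and C6 overlapped between the groups, and both were lowest in PBS replicate 2. Of the complement inhibitors, factor I (Cfi), which degrades C3b and C4b, was at 314.8, 360.3 and 299.1 RPKM in LCWE livers and 438.9, 308.7 and 294.8 RPKM in PBS livers (0.95-fold, adjusted p = 0.8498). Its cofactor C4bp, the C4b-binding protein, was at 42.1, 45.1 and 36.4 RPKM in LCWE livers and 48.0, 35.5 and 33.97 RPKM in PBS livers (1.06-fold, adjusted p = 0.820). Serping1, which encodes the C1 inhibitor that blocks C1r, C1s, kallikrein and factor XIIa, was at 133.4, 144.0 and 119.7 RPKM in LCWE livers and 131.4, 98.0 and 103.5 RPKM in PBS livers (1.199-fold, adjusted p = 0.387). In all 3 inhibitors the groups overlapped, with PBS replicate 2 the highest PBS library.

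The place of PBS replicate 2 varied among the members. Of the 18 clotting members 10 were highest of all 6 livers there and 1, F5, was lowest, whereas of the 19 complement members 4 (Mbl2, C8g, Cfi and C4bp) were highest there and 8 lowest. Over all genes tested in liver, 19.24% were highest and 40.66% lowest in that library, and the difference between the classes was not tested. Its level relative to the mean of PBS replicates 3 and 4 ran from 0.523 for Masp1 to 1.70 for Kng1, and for Alb, which encodes serum albumin, it was 1.68. With that library left out, 5 of 37 members passed in liver, against 6.64% of 14203 genes. They were Fga, Fgb, C4b, Pros1 and Serpinf2, all higher in LCWE livers. An unadjusted p below 0.05 was then reached by 13 members that were higher and 3 that were lower in LCWE livers, against 24.7% of genes, and the groups did not overlap for 19 higher and 3 lower members, against 43.7%. The clotting median was then 0.20 and the complement median 0.14, beside 0.02 over all genes, so that the order of the 2 classes turned on this library. With any other liver library left out, no member passed.

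**Figure D3:**
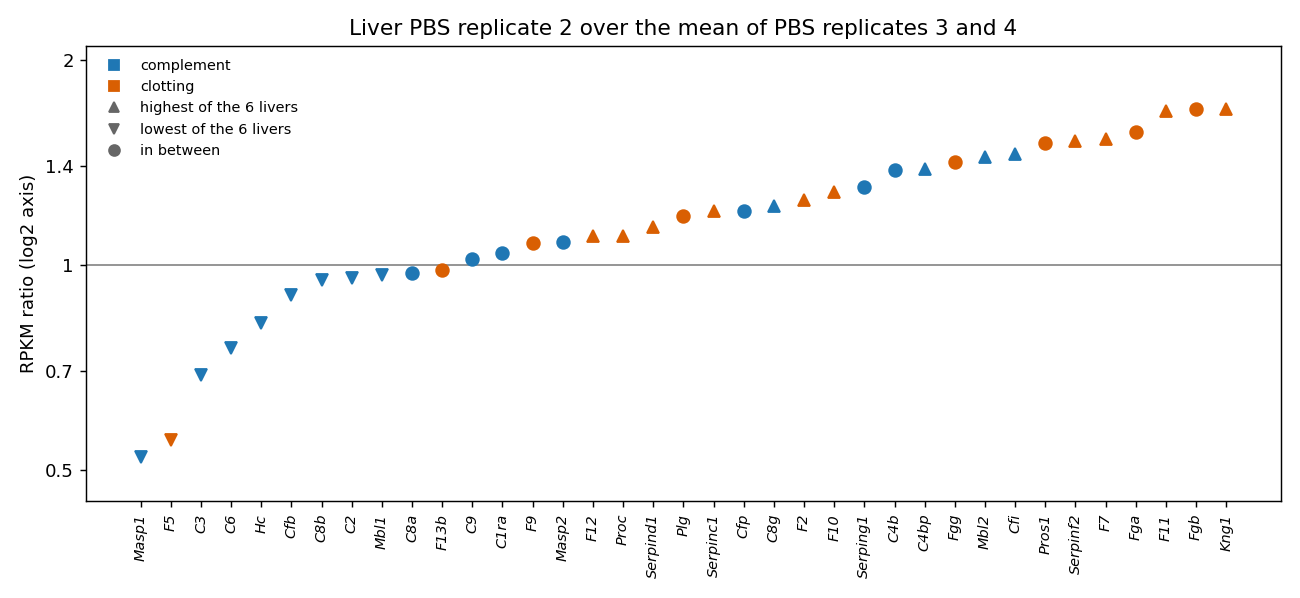
Level of each member in liver PBS replicate 2 divided by the mean of PBS replicates 3 and 4, on a log2 axis. Symbols show whether that library was the highest, the lowest or neither among all 6 livers. Clotting members gather at the upper end, up to 1.70 for Kng1. Of the 19 complement members 8 were lowest there and 4 highest, and of the 18 clotting members 1 and 10. Over all genes tested in liver 40.66% were lowest and 19.24% highest.

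Markers of leukocytes were higher in LCWE livers and are given here beside Cfp, which did not pass. Summed over 9 markers of monocytes and macrophages, the level was 178 to 232 RPKM in LCWE livers, against 67.1 to 90.2 RPKM in PBS livers, and 6 of the 7 tested rose. Summed over 10 neutrophil markers, it was 18.0 to 41.3 RPKM in LCWE livers, against 1.67 to 4.49 RPKM in PBS livers, with Ly6g, Cxcr2 and Mmp9 below 0.5 RPKM in every liver. Of the 4 neutrophil markers tested 3 rose, but 2 of these, S100a8 and Csf3r, were below 0.5 RPKM in every PBS liver and entered the test through their LCWE levels alone. Their part in the Cfp values was not tested. The hepatocyte sum was highest in PBS replicate 2, at 52700 RPKM, and 0 of 10 hepatocyte markers passed. For fibroblast markers the sum was 28.2 to 35.9 RPKM in LCWE livers and 26.0 to 27.1 RPKM in PBS livers, and for endothelial markers 28.5 to 31.8 RPKM in LCWE livers and 25.1 to 29.1 RPKM in PBS livers. For platelet markers it was 1.13 to 1.36 RPKM in LCWE livers and 0.890 to 1.34 RPKM in PBS livers, with Ppbp, Gp9 and Gp1bb below 0.5 RPKM in every liver. No fibroblast or endothelial marker passed, and no platelet marker was high enough in liver to be tested.

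A further list held 55 genes of the same pathways that are not members. Of 40 tested in liver, 10 rose in LCWE livers and 0 fell, beside 3.39% and 0.646% of genes, and the list's median was 0.29. Of the 10, Itgax, Procr and Plaur were below 0.5 RPKM in every PBS liver and entered the test through their LCWE levels alone, which leaves 7 that rose. The 8 with the smallest p are named here. C1qa, C1qb and C1qc, the chains of the recognition molecule of the classical pathway, made by macrophages, rose 2.01-fold, 1.88-fold and 1.95-fold (adjusted p = 0.0324, 0.0205 and 0.0266). C1qb was at 25.8, 28.7 and 30.7 RPKM in LCWE livers, against 17.3, 12.8 and 14.7 RPKM in PBS livers. The chains of complement receptor 3 rose too, Itgb2 2.60-fold (11.2 ± 0.548 RPKM in LCWE livers and 3.98 ± 0.238 RPKM in PBS livers, adjusted p = 0.00557) and Itgam 1.79-fold (adjusted p = 0.0273). On the clotting side, Fgl2, a fibrinogen-like protein with prothrombinase activity on macrophages, rose 2.57-fold (3.56 ± 0.440 RPKM in LCWE livers and 1.08 ± 0.2003 RPKM in PBS livers, adjusted p = 0.00846). Procr, the protein C receptor, rose 1.96-fold on that scale (means of 0.918 RPKM in LCWE livers and 0.219 RPKM in PBS livers, adjusted p = 0.0197). Plaur, the urokinase receptor, rose 1.68-fold (0.606 and 0.160 RPKM, adjusted p = 0.0288). The same marker sums of monocytes, macrophages and neutrophils moved with these genes, and their part in them was not tested.

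In the small intestine the members stood far lower than in liver, and the classes parted by level. In PBS mice 24 members were at most at 1% of their liver level, between 0.267% for F13b and 0.880% for Cfi, and 17 of these belong to clotting. The 13 members above 1% comprised 12 complement genes and Pros1. Highest relative to liver were Cfp at 55.3%, Pros1 at 53.6%, C2 at 31.8% and Cfb at 15.2%, followed by Masp2 at 9.50%, Serping1 at 9.20%, C1ra at 8.90%, C4b at 5.48% and C3 at 2.87%. In RPKM, C3 averaged 98.8 ± 21.1 in LCWE intestines and 56.7 ± 14.3 in PBS intestines and Cfb 43.8 ± 0.855 in LCWE intestines and 49.4 ± 2.69 in PBS intestines. They were the highest members there, and the next, Serping1, averaged 10.2 ± 0.638 in PBS intestines. Of the reads in genes the members took 0.0820% to 0.124% in LCWE intestines and 0.0623% to 0.0808% in PBS intestines, most of it complement.

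The intestinal comparison asks the same question in the gut. Of the 37 members 30 passed the filter, and Masp1, F7, F9, F11, F12, F13b and Serpind1 did not. None of the 30 passed the test by limma, against 0% of the 17510 genes tested, and none did by voom. An unadjusted p below 0.05 was reached by 8 members with limma, against 12.6% of genes, and by 7 with voom, against 12.7%. All 8 were complement genes and all averaged higher in LCWE intestines, against 7.69% of genes in that direction. They were C1ra, Mbl1, Masp2, C2, C3, C4b, C6 and Serping1, and no clotting member was among them. Of the members tested, 18 were complement and 12 clotting genes, and the difference between the classes was not tested. Over all members in the table, the median log2 fold change was 0.34 for complement and 0.27 for clotting, beside 0.11 for all genes tested. After median-ratio scaling the medians were 0.26 and 0.17, beside 0.01 for all genes. Of the 30 members tested, 8 were higher and 1, Cfb, was lower without overlap between the groups, against 13.2% and 6.15% of genes.

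C3 was at 74.5, 111.8 and 110.0 RPKM in LCWE intestines, against 40.6, 61.3 and 68.1 RPKM in PBS intestines. Every LCWE library was above every PBS library, with a difference of 0.81 ± 0.24, 1.75-fold (limma adjusted p = 0.2998). C2 was at 9.996, 5.86 and 6.15 RPKM in LCWE intestines and 2.83, 3.91 and 4.99 RPKM in PBS intestines, also apart, with a difference of 0.82 ± 0.25, 1.77-fold (adjusted p = 0.311). Cfb, the neighbour of C2, went the other way, at 44.6, 43.9 and 42.9 RPKM in LCWE intestines and 49.9, 46.5 and 51.8 RPKM in PBS intestines (-0.17 ± 0.08, 0.89-fold, adjusted p = 0.444). C4b was at 9.01, 13.4 and 13.7 RPKM in LCWE intestines, against 7.33, 9.64 and 8.62 RPKM in PBS intestines, where LCWE replicate 1 lay inside the PBS range (1.37-fold, adjusted p = 0.385). C1ra was at 8.26, 11.95 and 12.1 RPKM in LCWE intestines, against 5.89, 8.04 and 7.44 RPKM in PBS intestines (1.47-fold, adjusted p = 0.331). Its near-identical partner C1rb was at 0.97 to 1.78 RPKM in LCWE intestines, against 0.561 to 0.761 RPKM in PBS intestines.

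Serping1 was at 11.4, 14.6 and 17.7 RPKM in LCWE intestines, against 9.53, 10.8 and 10.3 RPKM in PBS intestines (1.39-fold, adjusted p = 0.335). C6 averaged 2.21 ± 0.536 RPKM in LCWE intestines and 1.36 ± 0.117 RPKM in PBS intestines, and Masp2 4.23 ± 0.673 RPKM in LCWE intestines and 3.16 ± 0.0840 RPKM in PBS intestines (1.43-fold and 1.28-fold, adjusted p = 0.332 and 0.339). These 3 genes did not overlap between the groups. Cfp was at 2.05, 4.35 and 3.93 RPKM in LCWE intestines, on both sides of 2.51, 2.82 and 2.59 RPKM in PBS intestines (1.21-fold, adjusted p = 0.597). C4bp was at 0.406, 0.574 and 0.864 RPKM in LCWE intestines and 0.537, 0.613 and 0.623 RPKM in PBS intestines (1.01-fold, adjusted p = 0.979). Mbl2 varied more within the groups than between them, from 2.03 to 5.18 RPKM in LCWE intestines and from 1.62 to 5.19 RPKM in PBS intestines.

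**Figure D4:**
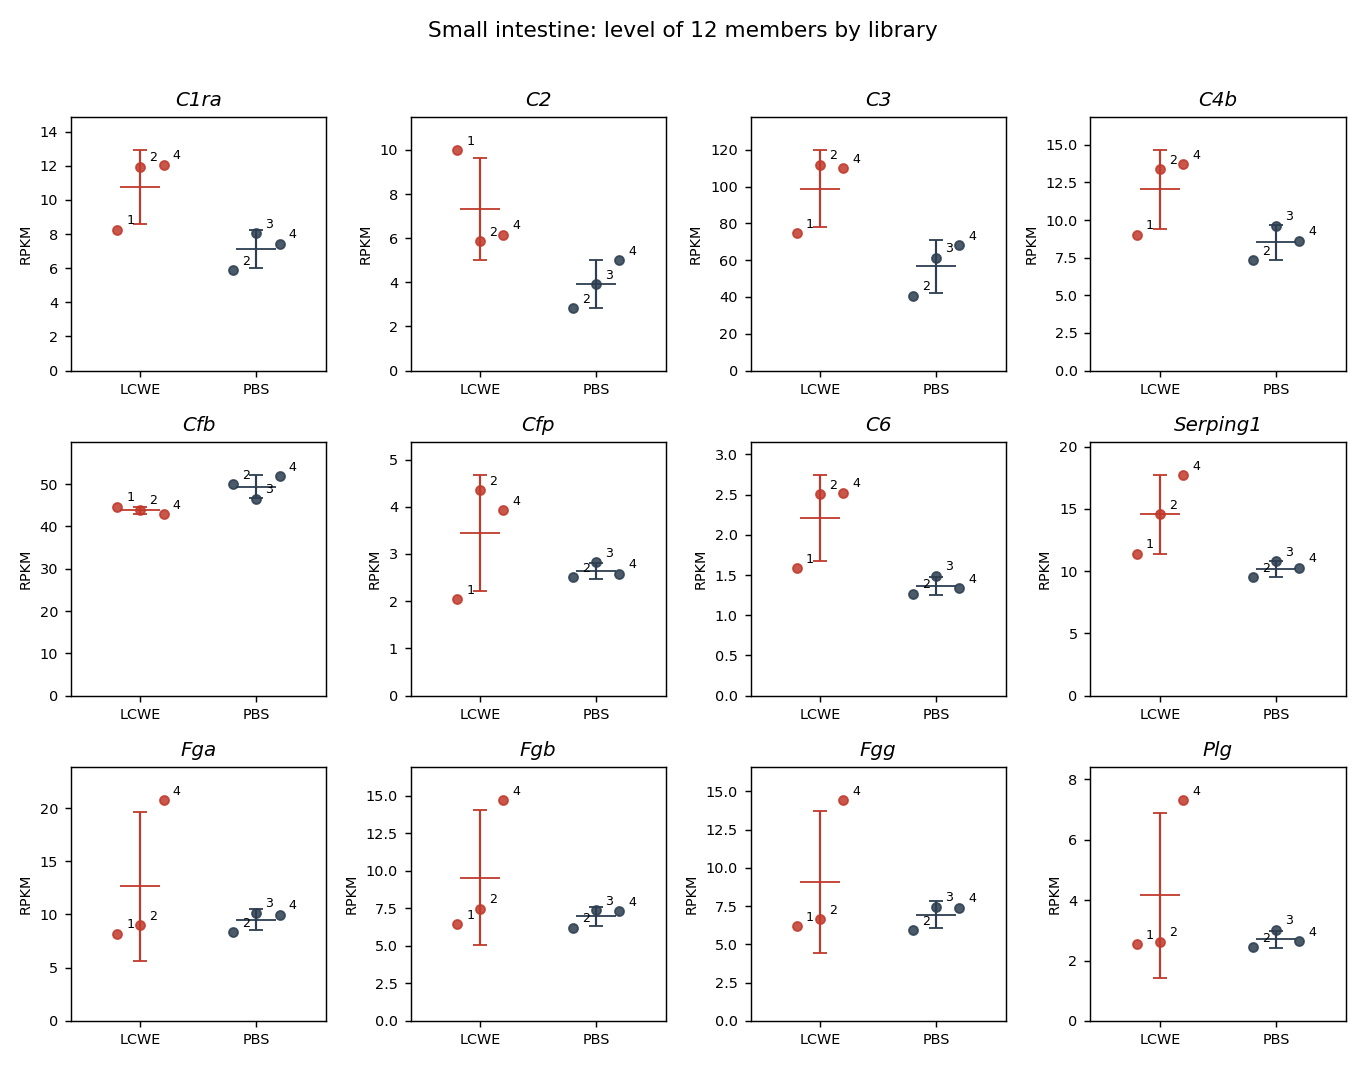
Level in RPKM of 12 members in each intestinal library, LCWE left of PBS. Points are libraries marked with their replicate number, lines and bars are mean ± SD (n = 3); C3, C2, C1ra, C6 and Serping1 lie higher in all 3 LCWE libraries, whereas Fga, Fgb, Fgg and Plg are high in LCWE replicate 4 alone.

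The fibrinogen genes were high in a single intestinal library. Fga was at 8.196, 8.97 and 20.7 RPKM in LCWE intestines and 8.35, 10.2 and 9.98 RPKM in PBS intestines (1.21-fold, adjusted p = 0.691). Fgb was at 6.46, 7.49 and 14.7 RPKM in LCWE intestines and 6.21, 7.39 and 7.30 RPKM in PBS intestines (1.27-fold, adjusted p = 0.576), and Fgg at 6.17, 6.65 and 14.4 RPKM in LCWE intestines and 5.92, 7.46 and 7.41 RPKM in PBS intestines (1.21-fold, adjusted p = 0.672). LCWE replicates 1 and 2 thus lay within or close to the PBS range, and replicate 4 about as far above it in each chain. F10 was at 1.98, 1.32 and 3.81 RPKM in LCWE intestines, against 1.21, 1.30 and 1.29 RPKM in PBS intestines (1.52-fold, adjusted p = 0.444). Kng1 was at 2.38, 2.54 and 5.41 RPKM in LCWE intestines and 1.91, 2.20 and 2.89 RPKM in PBS intestines (adjusted p = 0.540). Proc was at 3.17, 4.01 and 5.15 RPKM in LCWE intestines and 2.86, 3.45 and 3.58 RPKM in PBS intestines (adjusted p = 0.522). The 7 members outside the filter stayed at 0.859 RPKM or less in every intestinal library, on 4 to 60 reads each. Among them F7 was at 0.428, 0.543 and 0.397 RPKM in LCWE intestines, above 0.310, 0.302 and 0.0710 RPKM in PBS intestines, and was not tested.

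Of the 24 members at or below 1% of the liver level, 22 were highest in LCWE replicate 4 among all 6 intestinal libraries, the exceptions being F7 and F11. Their level in that library was 2.33 times the mean of LCWE replicates 1 and 2 in the median. All 10 hepatocyte markers were highest there as well, at 2.60 times in the median, with Alb at 51.6, 60.2 and 144.5 RPKM in LCWE intestines and 52.9, 60.2 and 59.2 RPKM in PBS intestines. The 13 members above 1% had a median of 1.23 times in that library. The same library had the lowest sum of enterocyte markers, 1663 RPKM, and the highest sum of fibroblast markers. The fibroblast sum was 78.6, 121 and 135 RPKM in LCWE intestines and 70.6, 87.65 and 94.6 RPKM in PBS intestines, overlapping between the groups. All 7 fibroblast and all 5 endothelial markers averaged higher in LCWE intestines, and 0 of them passed. What these marker values contribute to the members' levels was not tested. Without LCWE replicate 4 the complement median was 0.17 and the clotting median -0.02, beside 0.07 for all genes. Of the 8 complement genes, Mbl1, C2 and C3 kept an unadjusted p below 0.05, against 7.58% of all genes tested. The difference of Mbl1 was then 0.39 ± 0.16, against 0.73 ± 0.29 with all libraries, that of C2 0.92 ± 0.29 and that of C3 0.72 ± 0.27. The other 5 stayed higher in LCWE intestines, C1ra by 0.47 ± 0.20, C6 by 0.43 ± 0.19, C4b by 0.36 ± 0.20, Serping1 by 0.32 ± 0.14 and Masp2 by 0.25 ± 0.11. In all, 15 of 37 members changed sign, Fga and Fgg among them. Adjusted p over all alternatives ran from 0.109 to 0.686 for Mbl1, from 0.0907 to 0.654 for C2 and from 0.0763 to 0.640 for C3.

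**Figure D5:**
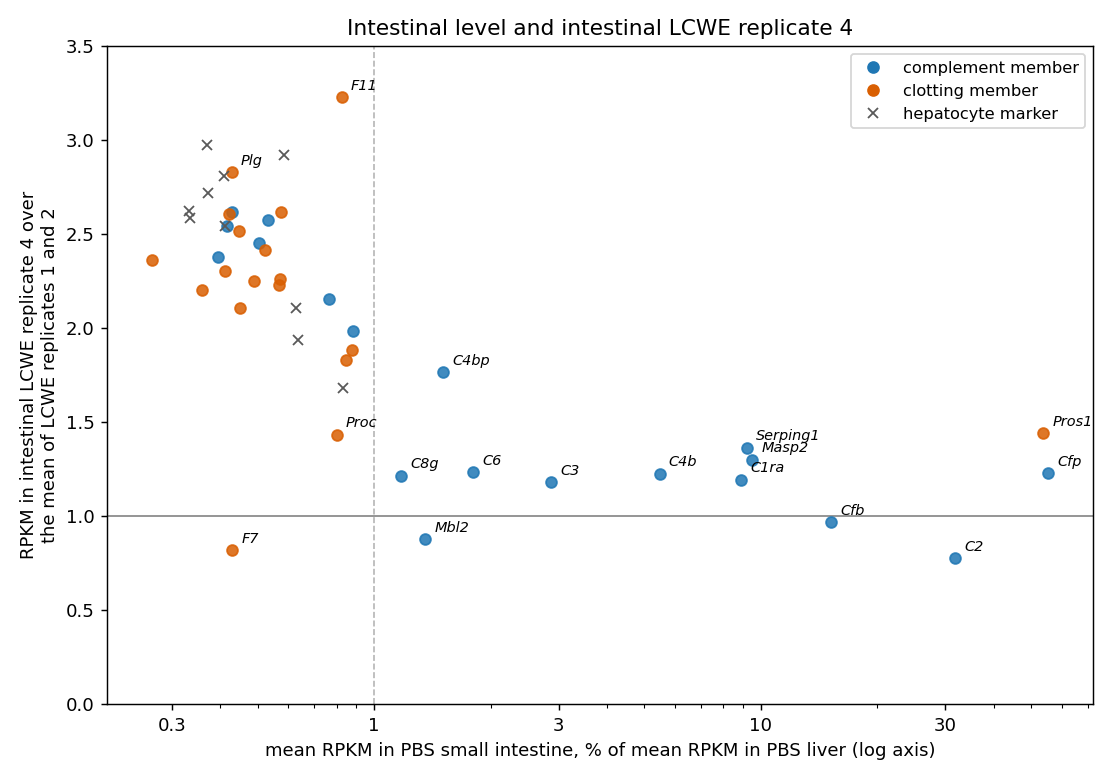
Level in intestinal LCWE replicate 4 over the mean of LCWE replicates 1 and 2 (y) against the level in PBS intestine as a percentage of that in PBS liver (x, log axis). Each point is a member or, as a cross, a hepatocyte marker; members left of the dashed line at 1% gather near the crosses with a median ratio of 2.33, and those right of it have a median ratio of 1.23.

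Of the 55 other pathway genes, 43 were tested in the intestine and 0 passed by limma. An unadjusted p below 0.05 was reached by 5 that were higher and 3 that were lower in LCWE intestines, against 7.69% and 4.89% of all genes tested. Markers of monocytes and macrophages summed to 143 to 203 RPKM in LCWE intestines and 118 to 150 RPKM in PBS intestines, and neutrophil markers to 3.67 to 4.97 RPKM in LCWE intestines and 2.79 to 3.80 RPKM in PBS intestines, with S100a8, Ly6g, Cxcr2, Ngp, Camp and Ltf below 0.5 RPKM in every one. None of these markers passed in the intestine.

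Whether LCWE acted differently on a member in the 2 tissues was tested in 1 fit of all 4 groups, by subtracting the intestinal effect from the liver effect. By limma 0 of 37 members passed, against 0.736% of 18619 genes, and 2 reached an unadjusted p below 0.05, against 12.8% of genes. Masp1, F7, F9, F11, F12, F13b and Serpind1, which did not pass the intestinal filter, entered this fit through their liver levels. Their intestinal levels were 0.859 RPKM or less, so their tests say little about a tissue difference. By voom 0 passed and 4 reached an unadjusted p below 0.05, against 0.865% and 12.6% of genes. The median over the members was -0.14, beside -0.01 over all genes, and without intestinal LCWE replicate 4 it turned to 0.14, beside 0.02. C8g had the smallest p. Its intestinal level was low, at 0.865, 1.22 and 1.27 RPKM with LCWE and 0.579, 1.025 and 0.752 RPKM with PBS, on 33 to 64 reads. The intestinal groups overlapped (limma adjusted p = 0.467), so the direction there is not settled. Its log2 difference between LCWE and PBS was -0.48 in liver and 0.34 in the intestine, and the difference of the 2 was -0.82 ± 0.21 with an adjusted p of 0.107. That value ran from 0.0466 to 0.246 over the alternatives, and the call was made only without intestinal LCWE replicate 1. Proc followed, lower in LCWE livers and higher in LCWE intestines (-0.52 ± 0.20, adjusted p = 0.296), and C1ra was next (-0.44 ± 0.21, adjusted p = 0.418). Among the other pathway genes Fgl2 and Itgb2 passed, with the rise in liver exceeding the difference in the intestine by 1.05 ± 0.17 and 1.04 ± 0.18 on the log2 scale (adjusted p = 0.0224 and 0.0273).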

How the data were processed

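Total RNA of liver and small intestine was measured in 12 libraries, and the groups and replicate numbers were taken from the labels. Per the labels' protocols, TRIzol was used for the extraction, with a DNase I step. The deposited table gives RPKM per gene, and as checked on the values the authors applied no scaling beyond gene length and reads in genes. Per the submitters' processing notes, the build was mm10 and the tools Trimmomatic 0.36, featureCounts, Subread 1.5.1 and edgeR 3.12.1, with no roles given. The aligner and the strandedness are not given in the sources used here. Among 16 library columns of RPKM values, 12 were matched to samples by name and 4 were left unused. RPKM times the deposited gene length in bases could be turned back into whole reads for 100% of nonzero values (tolerance 0.001), from which the depth of each library follows. The authors' deposited differential table, with p-values and log2 fold changes of 797 genes in liver and 220 in the intestine, lists 0 of the 37 members and was not used further. The smallest absolute log2 fold change it lists for liver is 1.0, and the largest of a member in liver here was 0.85. The absence of members there is therefore no separate result.

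Genes reaching an RPKM of 0.5 in 3 or more of the libraries fitted were tested on log2(RPKM + 0.5) with R 4.3.3 and limma 3.58.1 (two-sided moderated test, trended prior); this scale understates the change of low genes. P-values were Benjamini-Hochberg adjusted over all genes tested and called below 0.05. Each tissue was fitted apart, and the tissue difference in 1 fit over 4 groups. With 3 against 3 libraries only large or steady changes pass. In simulated data for liver, 46 of 100 genes changed 2-fold and 100 of 100 changed 4-fold were recovered, with 11 unchanged genes called. For the intestine it was 36 and 100 of 100, with 16 unchanged genes called. The simulations gave every gene the same dispersion and changed only genes above a set mean level. They therefore do not represent outlying libraries or the low intestinal members. Fold values are the difference in log2(RPKM + 0.5) turned back from log2, not ratios of mean RPKM. Class medians are over all members in the table, those outside the filter included. Alternatives comprised scaling by quantiles or by median ratios, a pseudocount of 0.1 or 1, dropping the filter or raising it to RPKM 1, voom on recovered reads, the replicate number as a block, 1 fit over 4 groups and leaving out each library. Median-ratio scaling together with leaving out liver PBS replicate 2 or intestinal LCWE replicate 4, and a block of treatment and number across tissues, were chosen after seeing the data. The members, the gene and marker lists and the tests were chosen with earlier results of these data known.

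Given library by library are the fibrinogen genes, C3, Cfb, C4b, Cfp, Serping1, C4bp and, per tissue, the 3 members of smallest p in each direction in each class; the other members given that way, and those named for liver PBS replicate 2, were picked with their values in view. Of the further pathway genes, up to 8 that passed are named. All 37 members were matched to the GENCODE M21 annotation of mm10, and the exons of 7 (C2, Cfb, Masp2, Hc, F5, Serpinc1 and Fgg) overlap another gene. Reads of C4b and C4a, C1ra and C1rb, and Kng1 and Kng2 may be shared between copies.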

Additional observations from a re-analysis of the deposited data

How the results depend on the processing

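With 3 libraries per group, depth was not the limit in liver, where the members are abundant; in the intestine 7 members rested on 60 reads or fewer. In liver 0 members passed in every setting run except when PBS replicate 2 was left out. There 5 passed, against 6.64% of 14203 genes. Without that library under median-ratio scaling again 5 passed (Fga, Fgb, C4b and Pros1 higher and C8g lower in LCWE livers). The share of all genes that passed in that combined setting is not given here, so this count has no background beside it. Leaving out single libraries gave 0 to 5 members in liver, 0 in the intestine and 0 to 1 for the tissue difference, the 1 being C8g (-0.93, adjusted p = 0.0466) without intestinal LCWE replicate 1. For that fit the share of all genes is not given here either. The liver medians ran from 0.11 to 0.22 for complement and from 0.01 to 0.20 for clotting when single libraries were left out, and the intestinal ones from 0.17 to 0.51 and from -0.02 to 0.43. With median-ratio scaling and without intestinal LCWE replicate 4 the intestinal clotting median was -0.071 and the complement median 0.09. No member was called with all libraries, and 5 (Cfi, F2, F5, F7 and Masp1) changed sign in liver without PBS replicate 2.

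The labels do not say whether same-numbered liver and intestinal libraries came from the same mouse, and the numbers were not read as pairs. Same-numbered libraries did not deviate together (correlations of -0.083 to 0.107). This cannot exclude a shared mouse, since the 2 tissues of a mouse may deviate in different ways. With the replicate number as a block, which rests on numbers 2 and 4, 0 members passed in liver, in the intestine and for the tissue difference, and 0 with the block of treatment and number across tissues. The intestinal difference of C4b was 0.73 with the replicate block.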

Other observations

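A pair of further pathway genes, singled out after their values were seen, had a pattern by library. Fgl1, which encodes a fibrinogen-like protein that hepatocytes secrete in the acute phase, was at 313.3, 388.6 and 174.9 RPKM in LCWE livers and at 262.4, 74.6 and 73.7 RPKM in PBS livers. PBS replicate 2 again lay inside the LCWE range, and the difference was 1.29 ± 0.54 (limma adjusted p = 0.266). Cfd, which encodes the alternative pathway protease factor D and is made mainly by fat cells, was at 0.592, 0.125 and 0.320 RPKM in LCWE intestines and at 0.908, 9.0 and 18.6 RPKM in PBS intestines (-2.94 ± 0.89, adjusted p = 0.305). In liver it was at 6.97 RPKM in PBS replicate 2 and at 0.125 RPKM or less in the other livers.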
